A study of Mus musculus with 8 samples.

Results

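Integrins are adhesion receptors made of an alpha and a beta chain, and 9 of their subunit genes (Itga4, Itga6, Itgae, Itgal, Itgav, Itgb1, Itgb2, Itgb3 and Itgb7) were followed here together with Icam1, a ligand of the integrin made from Itgal and Itgb2. The members were all array rows that carry one of these gene names and are not control spots, which gave 10 of 34797 gene names and 17 of 55681 probes. They were read in RNA from A20, a mouse B lymphoma cell line, on 2 one-colour Agilent arrays for each of 4 lines. These were IgE+ clone 18 and IgE+ clone 41, both stable transfectants, then a stable transfectant carrying membrane IgM, and A20 cells that were not transfected. All 4 lines share the A20 background, so no line without the lymphoma genome was measured. The labels and the series' design text name the transfected constructs only as membrane IgE and membrane IgM, and each IgE line is 1 clone, so a difference of a clone and a difference that goes with IgE cannot be told apart within 1 line. Whether both arrays of a line read separate cultures is not given in the labels, and the p-values therefore rest on a spread between arrays that may be technical.

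The alpha chain largely sets what an integrin binds. The product of Itgal pairs with that of Itgb2 to form LFA-1, which holds B cells to Icam1 on other cells. The product of Itga4 pairs with that of Itgb1 to bind Vcam1 and fibronectin, or with that of Itgb7 to bind Madcam1, the address molecule of gut vessels. Itgae also pairs with Itgb7 and binds E-cadherin, Itga6 pairs with Itgb1 or Itgb4 and binds laminins, and Itgav pairs with Itgb3 and binds vitronectin and Mfge8. Talin and kindlin bind the tail of the beta chain and bring the receptor into its binding state, a step driven in lymphocytes by the small GTPase Rap1. In B cells, LFA-1 and the integrin of Itga4 and Itgb1 are known for retention in lymphoid tissue and for holding on to cells that display antigen.

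The results turn on a few probes, and for these 30 bases of each probe are shown, since probes of one gene did not all read alike. The Itga6 probes lie 4123 bases apart at mm9 chr2:71694756-71694815 (A_55_P2015670, assigned by the array to the gene's RefSeq mRNA) and chr2:71690633-71690692 (A_55_P1958840, assigned to an Ensembl transcript). The Itgb3 probes lie at chr11:104531672-104531731 (A_52_P553890) and chr11:104528625-104528684 (A_66_P126293), and the Itga4 probe that was tested lies at chr2:79173193-79173252. All of these are on the plus strand of mm9. The array files do not say whether a probe lies in coding sequence or in a UTR, and no annotation of that build was used. Capitals in the first sequence mark a run of 5 GTT repeats.
Itga6 A_55_P2015670, bases 18 to 47: aggtcttGTTGTTGTTGTTGTTctgacctt
Itga6 A_55_P1958840, bases 1 to 30: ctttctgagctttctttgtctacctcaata
Itgb3 A_52_P553890, bases 1 to 30: ccacagcaacatcagagtctttgtccattt
Itgb3 A_66_P126293, bases 1 to 30: acttatgtgtgtgacgagtgtggggaaatg
Itga4 A_55_P2040026, bases 1 to 30: gtgtgtggaatgcattataaagatctaaca

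One probe of Itgb1 crosses an intron (mm9 chr8:131250081-131255976, plus strand) and reads the end of the coding sequence for the cytoplasmic tail. It is shown in full because it holds the codons, in capitals, of the motifs of the beta tail that talin and kindlin bind.
Itgb1 A_66_P113059, bases 1 to 60: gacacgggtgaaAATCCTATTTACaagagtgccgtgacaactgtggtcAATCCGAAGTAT

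Searched in all probes as the strand printed, the run GTTGTTGTTGTTGTT was held by 8 of 55681 probes, a share of 0.0144%, and its reverse complement by 9. The 7 others with the run as printed, all tested, held 1 probe called lower and 0 called higher in the IgE lines, against 5.39% and 3.6% of all probes. Their median log2 difference was 0.27, against 0.05 over all probes. Whether the run bears on the Itga6 reading was not tested.

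Array brightness differed between the sides. The 75th percentile of the processed signal was 474 to 524 intensity units on the IgE arrays, against 584 to 664 on the control arrays, and every signal below is therefore given as log2 over that percentile of its own array. The pair of untransfected arrays was the least alike, with an SD of the log2 difference of 0.652 over probes, against 0.326 to 0.375 for the pairs of the other lines. The first IgM array had the most spots well above background, 58.9% against 49.7% to 53.1% on the other arrays. B cell markers were well above background on all 8 arrays for 10 of 10 genes, with summed levels of 358 to 389 times the 75th percentile in the IgE lines and 297 to 441 in the control lines. The sums do not show single genes. Cd79a was called lower in clone 18 than in untransfected cells (-1.12 ± 0.20, limma adjusted p = 0.0199) and IgM cells (-1.19 ± 0.20, 0.0137), and 0 genes of this list were called higher there. The first of these differences was under 2-fold in the authors' deposited table (-0.96), and its call was lost with no filter on dim probes (limma adjusted p = 0.0641). Neither call held without either clone 18 array (-1.01 and -1.22 against untransfected cells, -1.09 and -1.29 against IgM cells). The call against IgM cells was also lost without IgM replicate 1 (-1.04). Of 12 myeloid markers, 6 were well above background on all 8 arrays and 4 (Lyz2, Cd14, S100a8 and S100a9) on none, with sums of 10.6 to 19.3 in the IgE lines and 6.22 to 12.3 in the control lines. The list was called in both directions: Emr1 and Ly6g fell in the IgE lines (-4.41 ± 0.37 and -1.94 ± 0.25, limma adjusted p = 0.000561 and 0.00311), and Cd68 and Fcgr3 rose (1.68 ± 0.16 and 1.17 ± 0.11, 0.000976 and 0.00108). The Ly6g call was lost with normexp, a background correction fitted to the raw spot signals (-0.18, adjusted p = 0.275) and in the authors' deposited table (-0.49, 0.0708). Of 11 T cell markers, 7 were well above background on all 8 arrays and Cd8a on none, with sums of 17.3 to 21.3 in the IgE lines and 11.6 to 18.6 in the control lines. The 2 genes called in this list were nevertheless lower in the pooled IgE lines. Cd5 differed by -1.72 ± 0.19 (limma adjusted p = 0.00174). Cd3g was not well above background on any IgE array and was above it on 2 of 4 control arrays, both of IgM cells. Cd3g was at least 2.65-fold lower in the IgE lines (limma adjusted p = 0.000877), and 2.26-fold lower with normexp. That call was lost in a 2-group fit with line as a random block (0.0737). IgM cells exceeded untransfected cells at least 13.9-fold for Cd3g (0.00647), and neither clone was called against untransfected cells. Ly6g and Cd3g were tested only because control lines read them well above background. Of 9 stromal markers, 2 were well above background on all 8 arrays, 4 on none and 0 were called by limma (0 at an unadjusted p under 0.05), with sums of 0.317 to 0.434 in the IgE lines and 0.389 to 0.613 in the control lines. The part of these markers in the integrin results was not tested.

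A probe was tested where both arrays of 1 line or more read it well above background, which kept 15 of the 17 probes and 9 of the 10 genes. All 15 were well above background on all 8 arrays, so none entered through a line in which it was high. No spot of a member was saturated or marked as an outlier. The plot of all probes by array shows these values.

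**Figure D1:**
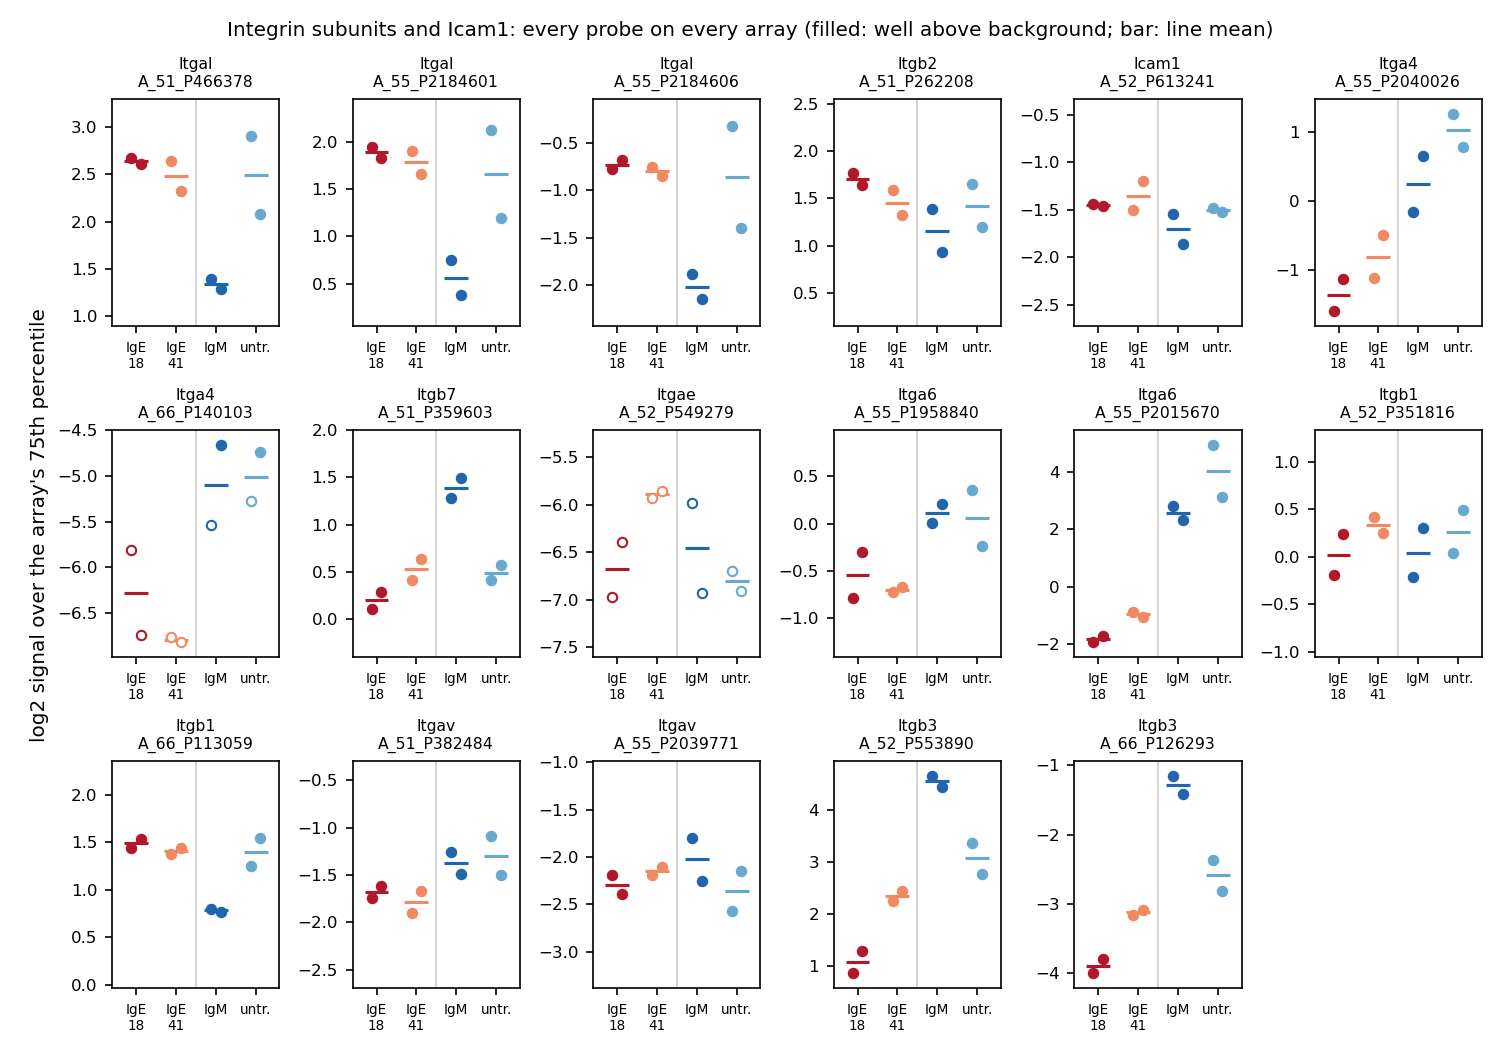
Each panel plots 1 probe, with the log2 signal relative to the 75th percentile of its array on the y axis (scaled per panel) and the 4 lines on the x axis, IgE clones left of the grey line and controls right of it. Points are arrays (open where not well above background) and bars are line means. The IgE and control arrays do not overlap for Itga6, Itgb3 or Itga4, nor for Itgav A_51_P382484, which was not called.

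Setting the mean of both IgE clones against the mean of both control lines asks which adhesion genes differ between these clones and these controls. The p-values of this comparison rest on the spread between arrays of a line and do not measure a spread between lines. A difference that goes with IgE and a difference of these clones cannot be told apart here either. The laminin receptor chain Itga6, the vitronectin receptor chain Itgb3 and the Vcam1 receptor chain Itga4 fell in the IgE lines. The LFA-1 chains Itgal and Itgb2, their ligand Icam1, and Itgb1, Itgav and Itgb7 did not pass the rule for a call, which asked for a change of at least 2-fold with an adjusted p under 0.05. By limma's test over all 29140 probes kept, 3 of 9 genes (4 of 15 probes) fell, against 5.39% of all probes and 6.3% of all gene names tested. No member rose (0 of 15 probes by limma, of which 4 were positive at an unadjusted p under 0.05), against 3.6% of all probes. The median difference over the 15 probes was -0.02, against 0.05 over all probes. In RNA from whole cultures, fewer cells with a transcript and less of it per cell cannot be told apart.

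Itga6, the laminin-binding alpha chain, had the largest difference among the members by its probe A_55_P2015670. That probe read -1.96 and -1.74 in clone 18 and -0.88 and -1.06 in clone 41, against 2.81 and 2.33 in IgM cells and 4.97 and 3.15 in untransfected cells. Every IgE array lay below every control array, and the first untransfected array was by far the highest. As intensities, the IgE arrays gave 126 to 284 units and the control arrays 2930 to 20900 units. The means were -1.41 ± 0.52 in the IgE lines and 3.31 ± 1.16 in the control lines (SD, n = 4 arrays each), a difference of -4.73 ± 0.38 (SE) or 26.4-fold (limma adjusted p = 0.000478).

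The other Itga6 probe, A_55_P1958840, moved the same way by far less. It read -0.78 and -0.30 in clone 18 and -0.72 and -0.67 in clone 41, against 0.01 and 0.21 in IgM cells and 0.36 and -0.23 in untransfected cells. The IgE and control arrays again did not overlap, although clone 18 array 2 and untransfected array 2 lay close together. The difference was -0.71 ± 0.19 (1.63-fold, limma adjusted p = 0.0453), past the p threshold and short of 2-fold. Across the 8 arrays the probes correlated with r = 0.86, as a description of arrays that share their lines. The changes at the 2 probes differed by 4.02 on the log2 scale, the most extreme of all splits of the arrays. The exact permutation test, two-sided, gave p = 0.0286, the smallest p it can give, and 0.1 after adjustment over 7 probe pairs. That test splits the arrays singly, as if the 2 arrays of a line were independent, so its p does not measure a spread between lines. Which transcripts each probe reads was not tested.

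Itgb3, the beta chain of the vitronectin receptor, fell by both of its probes. The brighter probe A_52_P553890 read 0.85 and 1.29 in clone 18 and 2.25 and 2.43 in clone 41, against 4.65 and 4.43 in IgM cells and 3.36 and 2.76 in untransfected cells. The lines stood in a clear order, with clone 18 lowest, then clone 41, then untransfected cells, and IgM cells highest. The difference between IgE and control lines was -2.09 ± 0.19 (4.26-fold, limma adjusted p = 7e-04). The dimmer probe A_66_P126293, which starts 3047 bases upstream, read -4.01 and -3.80 in clone 18 and -3.16 and -3.09 in clone 41, against -1.15 and -1.41 in IgM cells and -2.37 and -2.81 in untransfected cells. It kept the same order of lines, and its arrays did not overlap between the sides either. Its difference was -1.58 ± 0.15 (2.99-fold, limma adjusted p = 0.000974). With normexp background correction this dimmer probe differed by -0.82 (adjusted p = 0.00198), no longer 2-fold. The probes correlated with r = 0.99 over the 8 arrays, and their changes differed by -0.51 (exact permutation p = 0.0286, adjusted 0.1 over 7 pairs).

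Itga4, the alpha chain of the receptors for Vcam1 and Madcam1, fell by the 1 probe that could be tested. It read -1.61 and -1.14 in clone 18 and -1.12 and -0.50 in clone 41, against -0.16 and 0.66 in IgM cells and 1.27 and 0.79 in untransfected cells. All IgE arrays lay below all control arrays, with the narrowest gap between clone 41 array 2 and IgM array 1. The means were -1.09 ± 0.46 in the IgE lines and 0.64 ± 0.59 in the control lines (SD, n = 4 each), a difference of -1.73 ± 0.26 (3.31-fold, limma adjusted p = 0.00604). A second Itga4 probe, A_66_P140103, lies 19208 bases upstream across an intron and was too dim to test. It gave 4.19 to 8.71 intensity units on the IgE arrays, none well above background, and 14.1 to 23 units on the control arrays, of which IgM array 2 and untransfected array 2 were well above background.

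Neither beta partner of Itga4 was called. Itgb7, which completes the receptor for Madcam1, read 0.11 and 0.29 in clone 18 and 0.42 and 0.64 in clone 41, against 1.28 and 1.49 in IgM cells and 0.42 and 0.57 in untransfected cells. The IgM arrays stood above the other 6, while clone 41 and untransfected cells overlapped. It differed between IgE and control lines by -0.58 ± 0.13 (1.49-fold, limma adjusted p = 0.0267), short of 2-fold.

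Itgb1, the beta chain shared by many integrins, was read by 2 probes. The tail probe A_66_P113059 read 1.44 and 1.54 in clone 18 and 1.38 and 1.44 in clone 41, against 0.80 and 0.77 in IgM cells and 1.25 and 1.55 in untransfected cells. Again it was the IgM line that stood apart, here as the lowest. The difference between IgE and control lines was 0.36 ± 0.12 (limma adjusted p = 0.0909). The upstream probe A_52_P351816 ran from -0.19 to 0.42 in the IgE lines and from -0.21 to 0.49 in the control lines, and differed by 0.03 ± 0.19 (limma adjusted p = 0.939). Their 95% confidence intervals, 0.07 to 0.65 and -0.43 to 0.48, left out a 2-fold change.

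Itgav, the alpha partner of Itgb3, was not called at either of its probes. Its probe A_51_P382484 ran from -1.90 to -1.62 in the IgE lines and from -1.50 to -1.09 in the control lines, which did not overlap, and differed by -0.40 ± 0.15 (limma adjusted p = 0.113). Its probe A_55_P2039771 ran from -2.39 to -2.10 in the IgE lines and from -2.57 to -1.80 in the control lines and differed by -0.02 ± 0.16 (limma adjusted p = 0.947). The difference between these 2 changes, -0.38, gave an exact permutation p of 0.143 (0.334 adjusted over 7 pairs), and the probes correlated with r = -0.16. The 95% confidence intervals were -0.75 to -0.04 and -0.41 to 0.37.

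Itgal, the alpha chain of LFA-1, was read by 3 probes that ran closely together (r = 0.98 to 0.99 over 8 arrays). Its brightest probe, A_51_P466378, read 2.67 and 2.61 in clone 18 and 2.64 and 2.32 in clone 41, against 1.39 and 1.29 in IgM cells and 2.90 and 2.08 in untransfected cells. The IgM arrays were the lowest, and the untransfected arrays lay on either side of the IgE arrays. The 3 probes differed between IgE and control lines by 0.64 ± 0.20, 0.72 ± 0.23 and 0.67 ± 0.24 (limma adjusted p = 0.0729, 0.0715 and 0.102), and none was called.

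The other chain of LFA-1 and its ligand had smaller differences. Itgb2 read 1.77 and 1.64 in clone 18 and 1.59 and 1.32 in clone 41, against 1.39 and 0.93 in IgM cells and 1.65 and 1.20 in untransfected cells. The sides overlapped, and the difference was 0.28 ± 0.17 (95% confidence interval -0.13 to 0.70, limma adjusted p = 0.302). Icam1 read -1.44 and -1.46 in clone 18 and -1.50 and -1.20 in clone 41, against -1.54 and -1.86 in IgM cells and -1.48 and -1.52 in untransfected cells. It differed by 0.20 ± 0.14 (95% confidence interval -0.12 to 0.52, limma adjusted p = 0.353). Both intervals left out a 2-fold change in either direction. Itgae, the alpha chain that binds E-cadherin, gave 3.89 to 8.6 intensity units in the IgE lines and 4.78 to 10.4 units in the control lines, was not well above background on any of the 8 arrays, and was not tested.

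**Figure D2:**
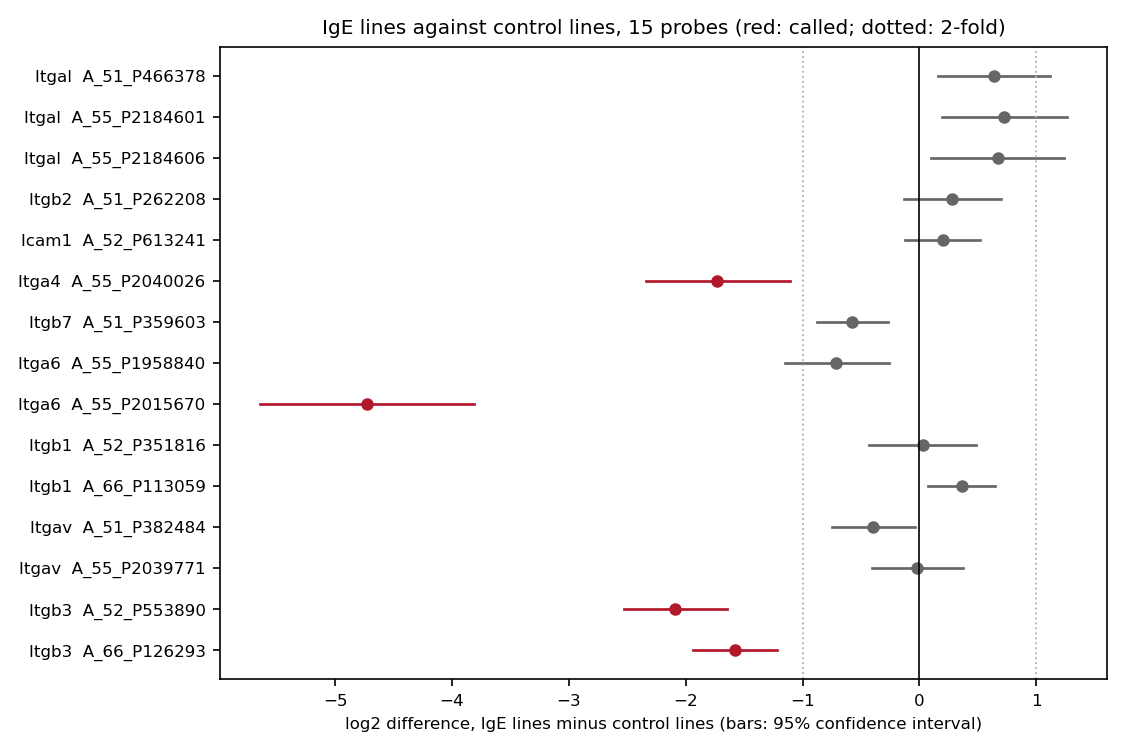
Points are log2 differences of the IgE lines minus the control lines for the 15 probes tested (x axis), bars are 95% confidence intervals, red marks probes called and dotted lines mark 2-fold. Only the probes of Itgb3, Itga4 and 1 of 2 probes of Itga6 are red, and all lie left of 0.

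The pooled contrast hides differences between the controls, so each clone was set against each control line in the same fit. These comparisons share lines with one another, and their values are given side by side. Against untransfected cells, clone 18 had 3 of 9 genes (4 of 15 probes) lower, against 3.96% of all probes, and clone 41 had 2 of 9 genes (2 of 15 probes) lower, against 3.06% of all probes. Neither clone had a member probe called higher than untransfected cells (0 of 15 by limma for each clone, and 0 at an unadjusted p under 0.05), against 3.5% and 2.45% of all probes. Against IgM cells, clone 18 had 4 genes (5 probes) lower and 1 gene (2 probes) higher, against 5.51% and 3.33% of all probes. Clone 41 had 2 genes (3 probes) lower than IgM cells, against 4.66% of all probes, and 0 higher (4 of 15 probes positive at an unadjusted p under 0.05), against 2.57%.

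**Figure D3:**
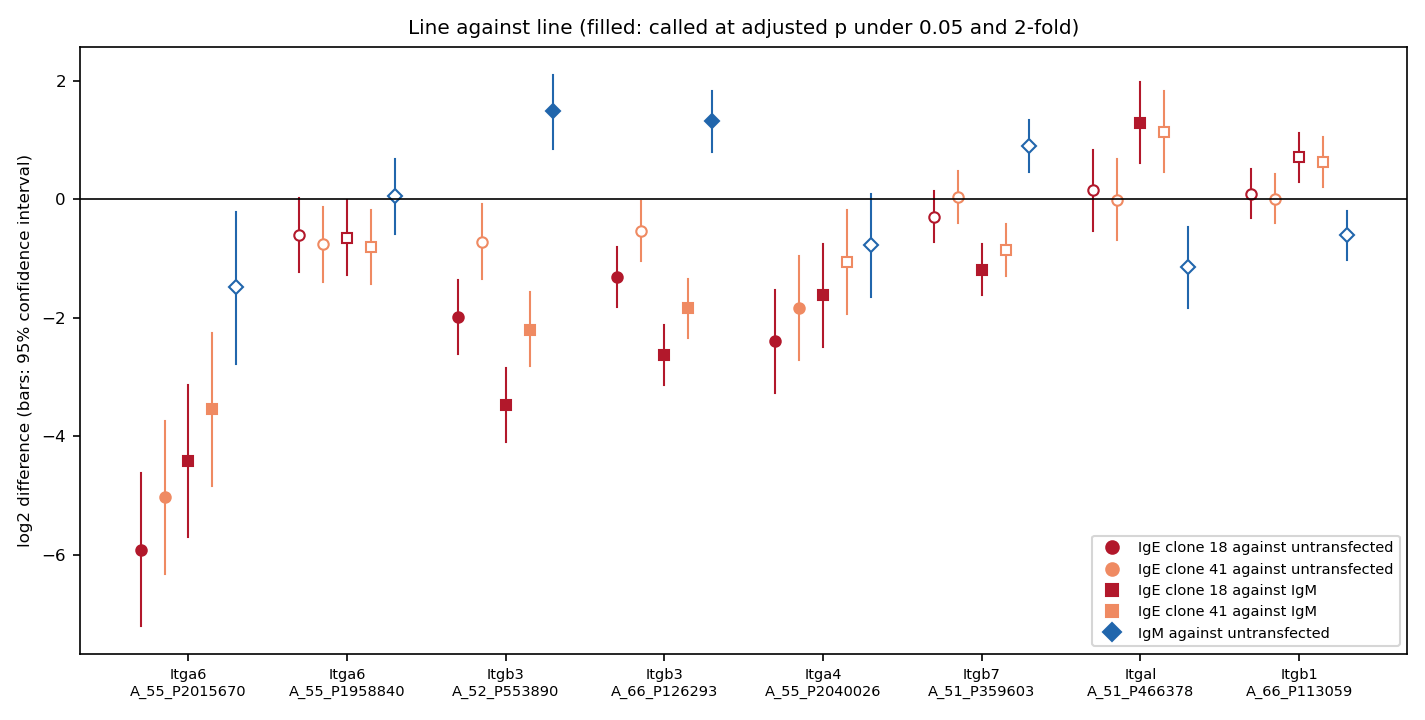
Each group of points shows 1 probe, with the log2 difference of the first-named line minus the second on the y axis, 95% confidence intervals as bars and filled markers where called. Itga6 A_55_P2015670 is filled for each clone against each control, while Itgal, Itgb7 and Itgb1 depart from 0 mainly in the comparisons that involve IgM cells.

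Itga6 was the member called in all 4 pairings of an IgE clone with a control, by its probe A_55_P2015670. Clone 18 differed by -5.91 ± 0.54 from untransfected cells and by -4.42 ± 0.54 from IgM cells (60.2-fold and 21.3-fold, limma adjusted p = 0.00136 and 0.00396). Clone 41 differed by -5.03 ± 0.54 from untransfected cells and by -3.54 ± 0.54 from IgM cells (32.8-fold and 11.6-fold, limma adjusted p = 0.00327 and 0.0111). The call of clone 41 against IgM cells was lost without clone 41 replicate 1 (-3.63, adjusted p = 0.0627), clone 41 replicate 2 (-3.45, 0.065) or IgM replicate 1 (-3.30, 0.0651), and its direction and size stayed. Between the clones the difference did not pass the test (0.88 ± 0.54 for clone 41 minus clone 18, 95% confidence interval -0.41 to 2.17, adjusted p = 1). The other Itga6 probe, A_55_P1958840, was called in none of the 4 pairings. By that probe, clone 18 differed by -0.61 from untransfected cells and by -0.65 from IgM cells (limma adjusted p = 0.2 and 0.185). Clone 41 differed by -0.76 and -0.81 in the same order (0.156 and 0.125).

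Itgb3 was called by both probes in 3 of the 4 pairings. By its brighter probe, clone 18 differed by -1.99 ± 0.26 from untransfected cells and by -3.47 ± 0.26 from IgM cells (3.96-fold and 11-fold, limma adjusted p = 0.00639 and 0.000504). Clone 41 differed by -0.72 ± 0.26 from untransfected cells (adjusted p = 0.175) and by -2.20 ± 0.26 from IgM cells (4.59-fold, adjusted p = 0.00412). Clone 41 was thus called lower than IgM cells only. Clone 41 minus clone 18 gave 1.27 ± 0.26 at this probe (limma adjusted p = 0.242) and 0.78 ± 0.21 at the dimmer one (adjusted p = 0.482), so the difference between the clones did not pass the test. The dimmer probe was called in the same 3 pairings, at -1.32 ± 0.21 for clone 18 against untransfected cells and -2.63 ± 0.21 and -1.84 ± 0.21 for clones 18 and 41 against IgM cells (limma adjusted p = 0.0139, 0.000691 and 0.00367). Without clone 18 replicate 1 the calls of clone 18 against untransfected cells were lost at both probes (adjusted p = 0.0588 and 0.112), and without clone 18 replicate 2 at the dimmer one (0.0679). The call of the dimmer probe was also lost with normexp background correction (-0.46, adjusted p = 0.1), with no filter on dim probes (0.0522) and in the authors' deposited table (-0.79, 0.066).

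Itga4 was called in 3 of the 4 pairings, and these calls were less steady. Clone 18 differed by -2.40 ± 0.37 from untransfected cells (5.27-fold, limma adjusted p = 0.0112) and by -1.62 ± 0.37 from IgM cells (3.07-fold, adjusted p = 0.0381). Clone 41 differed by -1.83 ± 0.37 from untransfected cells (3.57-fold, adjusted p = 0.0345) and by -1.06 ± 0.37 from IgM cells (adjusted p = 0.145). Clone 18 against untransfected cells lost its call without clone 18 replicate 1 (adjusted p = 0.0964) or 2 (0.0531). Clone 41 against untransfected cells lost it without any 1 of the arrays of clone 18, clone 41 or untransfected cells (adjusted p from 0.0505 to 0.187). Clone 18 against IgM cells lost it without either clone 18 array (0.216 and 0.108), either clone 41 array (0.0509 each) or IgM replicate 2 (0.153). With no filter on dim probes all 3 calls were lost (adjusted p = 0.0515, 0.122 and 0.115 in the order given), and in the authors' deposited table those of clone 41 against untransfected cells (0.084) and of clone 18 against IgM cells (0.0968). Quantile normalization also ended the call of clone 41 against untransfected cells (0.0549). The direction was the same in each of these fits.

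Itgal and Itgb7 were called only against IgM cells. Clone 18 exceeded IgM cells at the Itgal probes A_51_P466378 (1.29 ± 0.29, 2.45-fold, limma adjusted p = 0.0351) and A_55_P2184601 (1.32 ± 0.32, 2.5-fold, 0.0471), while A_55_P2184606 gave 1.28 ± 0.34 (0.0627). Clone 41 exceeded IgM cells at the same probes by 1.14 ± 0.29, 1.21 ± 0.32 and 1.21 ± 0.34 (adjusted p = 0.0595, 0.069 and 0.0824), short of the p threshold. With either untransfected array left out, all 3 probes passed in clone 41 (adjusted p = 0.0114, 0.0138 and 0.00838). Without any 1 of the arrays of clone 18, clone 41 or IgM cells, neither Itgal call of clone 18 held (adjusted p from 0.0592 to 0.222). Both were lost with no filter on dim probes (0.103 and 0.132), and that of A_55_P2184601 in the authors' deposited table (0.0733).

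In clone 18, Itgb7 lay below its level in IgM cells (-1.19 ± 0.18, 2.28-fold, limma adjusted p = 0.00969). That call was lost without clone 18 replicate 1 (adjusted p = 0.0819), clone 18 replicate 2 (0.0509) or IgM replicate 2 (0.0638). Clone 41 differed from IgM cells by -0.86 ± 0.18 (adjusted p = 0.0356), short of 2-fold. Against untransfected cells the values were -0.30 ± 0.18 for clone 18 and 0.03 ± 0.18 for clone 41 (limma adjusted p = 0.346 and 0.941).

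Setting IgM cells against untransfected cells shows how far the controls themselves lay apart for these genes. Itgb3 was the 1 of 9 genes called, higher in IgM cells by both probes, against 1.14% of all probes called higher. The differences were 1.48 ± 0.26 at the brighter probe (2.79-fold, limma adjusted p = 0.049) and 1.31 ± 0.21 at the dimmer (2.48-fold, adjusted p = 0.037). These calls lay at the threshold and were lost at both probes without any 1 of the arrays other than untransfected replicate 1 (adjusted p from 0.0612 to 0.22). No member probe was called lower (0 of 15 by limma, 5 at an unadjusted p under 0.05), against 0.686% of all probes. The values were -1.49 ± 0.54 for Itga6 A_55_P2015670 (adjusted p = 0.275), -1.15 ± 0.29 for Itgal A_51_P466378 (0.129), -0.61 ± 0.17 for the tail probe of Itgb1 (0.171) and 0.89 ± 0.18 for Itgb7 (0.0768). Without untransfected replicate 2, Itga6 (-2.41, adjusted p = 0.0136) and Itgal at its 3 probes (-1.56, -1.55 and -1.70, adjusted p = 0.0232, 0.0338 and 0.0164) were called lower in IgM cells, and Itgb3 was not (1.18 and 1.09, adjusted p = 0.0792 and 0.0612).

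Between the IgE clones, 0 of 15 member probes were called by limma, against 0.261% of all probes, and 2 were positive at an unadjusted p under 0.05, both of Itgb3. Clone 41 minus clone 18 otherwise ran from -0.25 ± 0.25 for Itgb2 to 0.88 ± 0.54 for the far-moving Itga6 probe.

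The probes whose 8 values most resembled those of a called member probe were taken as a description, since 24838 probes well above background on all arrays were searched and the arrays share their lines. Itga6 A_55_P2015670 was most alike to Zmiz1, Mfng and Enc1 (Pearson r = 0.9898, 0.987 and 0.9863). Both Itgb3 probes were most alike to a probe named Slc44a1 (r = 0.9907 and 0.9946), followed by an intergenic transcript probe on chromosome 1 (0.9895 and 0.9886), then Abcd3 (0.9845) for the brighter and Pias2 (0.9828) for the dimmer. Itga4 was most alike to Nubpl, Srbd1 and Mpp1 (0.9907, 0.9865 and 0.9849).

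The remaining genes of the pathway were read from lists, with 1 probe per gene, the brightest kept. The shares of all gene names set beside these lists count a name with at least 1 of its probes called, which is a looser rule. Of 18 further integrin subunit genes on the array, 5 could be tested, and Itga7, a laminin-binding alpha chain like Itga6, was the 1 that fell in the IgE lines, against 6.3% of all gene names. The list held 0 called higher (0 at an unadjusted p under 0.05), and its median was 0.04, against 0.05 over all probes. Itga7 read -3.65 and -3.58 in clone 18 and -3.98 and -3.28 in clone 41, against -2.53 and -3.16 in IgM cells and -1.98 and -1.06 in untransfected cells. The sides did not overlap, with IgM cells near the IgE arrays and untransfected cells above them. Itga7 differed by -1.44 ± 0.27 (2.71-fold, limma adjusted p = 0.0151), a call lost without clone 18 replicate 1 (0.0649), clone 18 replicate 2 (0.0592), clone 41 replicate 1 (0.0529) or IgM replicate 1 (0.0505). The Itga7 call was also lost with line as a random block (0.0546) and with no filter on dim probes (0.0574), and the difference was under 2-fold with normexp background correction (-0.67) and in the authors' deposited table (-0.93).

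The other subunits tested were Itga3, Itga10, Itgb4 and Itgam, and none was called between IgE and control lines. Itgam, the alpha chain of Mac-1 and another partner of Itgb2, is known from myeloid cells. Its brightest probe read 5.25 to 5.81 in the IgE lines and 5.13 to 5.75 in the control lines, while another of its 3 probes read -4.39 to -3.64 in the IgE lines and -3.99 to -3.32 in the control lines. Probe levels cannot be set against each other, and neither probe separated the sides. Itgb4, the other beta partner of Itga6, was called lower in clone 18 when set against IgM cells (-1.15 ± 0.27, 2.22-fold, limma adjusted p = 0.0442), a call lost without either array of clone 18 (0.177 and 0.198) or of IgM cells (0.148 and 0.169), and under 2-fold with normexp background correction (-0.62, 0.0921) and in the authors' deposited table (-0.78, 0.0912).

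Among the ligands, 10 of 30 genes could be tested, 3 fell and 0 rose in the IgE lines (1 at an unadjusted p under 0.05 was higher), against 6.3% and 4.21% of all gene names, and the median was -0.60, against 0.05 over all probes. Madcam1, the partner of the integrin of Itga4 and Itgb7, read -3.30 and -3.46 in clone 18 and -2.81 and -2.26 in clone 41, against -1.66 and -2.33 in IgM cells and -0.73 and -0.26 in untransfected cells. Untransfected cells were the highest and clone 18 the lowest, while clone 41 array 2 and IgM array 2 overlapped. Madcam1 differed by -1.71 ± 0.22 (3.28-fold, limma adjusted p = 0.00334). Lamb1, a laminin beta chain, read -3.91 and -2.70 in clone 18 and -2.89 and -2.20 in clone 41, against -1.25 and -1.06 in IgM cells and -1.43 and -1.58 in untransfected cells. Its sides did not overlap, and it differed by -1.59 ± 0.29 (3.02-fold, limma adjusted p = 0.0131), under 2-fold with normexp background correction (-0.81) and at an adjusted p of 0.0513 with no filter on dim probes.

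Mfge8, the bridging protein that binds the vitronectin receptor, read 3.69 and 3.68 in clone 18 and 3.56 and 3.86 in clone 41, against 5.17 and 5.32 in IgM cells and 3.84 and 4.77 in untransfected cells. IgM cells were the highest, and untransfected array 1 lay beside the IgE arrays. It differed by -1.07 ± 0.22 (2.11-fold, limma adjusted p = 0.0194), a call lost without either clone 18 array (adjusted p = 0.0744 and 0.0717), clone 41 replicate 1 (0.0725) or either IgM array (0.054 and 0.0602), and short of 2-fold without untransfected replicate 2 (-0.84). It was also lost with line as a random block (0.0542) and with no filter on dim probes (0.0663). Icam2, a second ligand of LFA-1, read 4.27 to 4.67 in the IgE lines and 4.15 to 4.54 in the control lines and was not called. Vcam1, Fn1 and Cdh1, which encode the ligands of the Itga4 and Itgae receptors, were not well above background on both arrays of any line.

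Integrin activators and adaptors were the fullest list, with 50 of 58 genes tested, 2 called higher and 3 lower in the IgE lines, against 4.21% and 6.3% of all gene names. The median was -0.03, against 0.05 over all probes. Nedd9, a docking protein of the Cas family at integrin complexes, read -6.98 to -5.46 in the IgE lines and 1.37 to 1.79 in the control lines, as the plot of pathway genes shows. None of the IgE arrays was well above background, so the difference is given only as at least 78.3-fold lower in the IgE lines (limma adjusted p = 2.16e-05). Zyx, which encodes the focal adhesion protein zyxin, read -1.20 to 0.28 in the IgE lines and -5.17 to -3.82 in the control lines, a difference of 4.11 ± 0.24 (17.2-fold, limma adjusted p = 0.000121). Zyx was well above background on 3 of 4 control arrays, so its fold rests partly on a signal at background. The sides did not overlap for either gene, while the size depended on the background correction. With normexp correction Nedd9 differed by -4.40 (21.1-fold) and Zyx by 2.60 (6.07-fold), and in the authors' deposited table Nedd9 differed by -5.18 and Zyx by 2.94.

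Rap1gap, which switches off the small GTPase Rap1, fell as well. It read -3.86 and -4.13 in clone 18 and -5.13 and -4.10 in clone 41, against -2.21 and -1.88 in IgM cells and -1.42 and -0.33 in untransfected cells. The sides did not overlap, and its difference was -2.85 ± 0.32 (7.19-fold, limma adjusted p = 0.00186), with -2.69 ± 0.51 (adjusted p = 0.015) at its other tested probe. The first probe was well above background on 3 of 4 IgE arrays and the other on 5 of all 8 arrays. Both differences thus rest partly on a signal at background. With normexp background correction Rap1gap differed by -1.39 (2.62-fold) and in the authors' deposited table by -1.79 (3.46-fold). Itgb1bp3 (now Nmrk2), listed as a binding partner of Itgb1, was not well above background in the IgE lines and was at least 2.98-fold lower there (limma adjusted p = 0.0115), a call lost without clone 18 replicate 1 (0.0549). With normexp background correction Itgb1bp3 differed by -0.60 (adjusted p = 0.0796) and in the authors' deposited table by -0.99 (0.121), in both cases less than that bound and not called. Lims2, an adaptor of the complex of integrin-linked kinase, was well above background on 3 of 4 IgE arrays and on no control array, and was at least 1.81-fold higher in the IgE lines (limma adjusted p = 0.0263), a call lost without clone 18 replicate 2 (0.0889), either clone 41 array (0.0838 and 0.0726) or IgM replicate 2 (0.077). It was also lost with line as a random block (0.0794), and Lims2 was under 2-fold with normexp background correction (0.47) and in the authors' deposited table (0.49). The filter kept Nedd9, Itgb1bp3 and Lims2 only through the side on which they were high, so their calls are not independent of it. The bound of Lims2, 1.81-fold, lies under the 2-fold of the call rule.

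**Figure D4:**
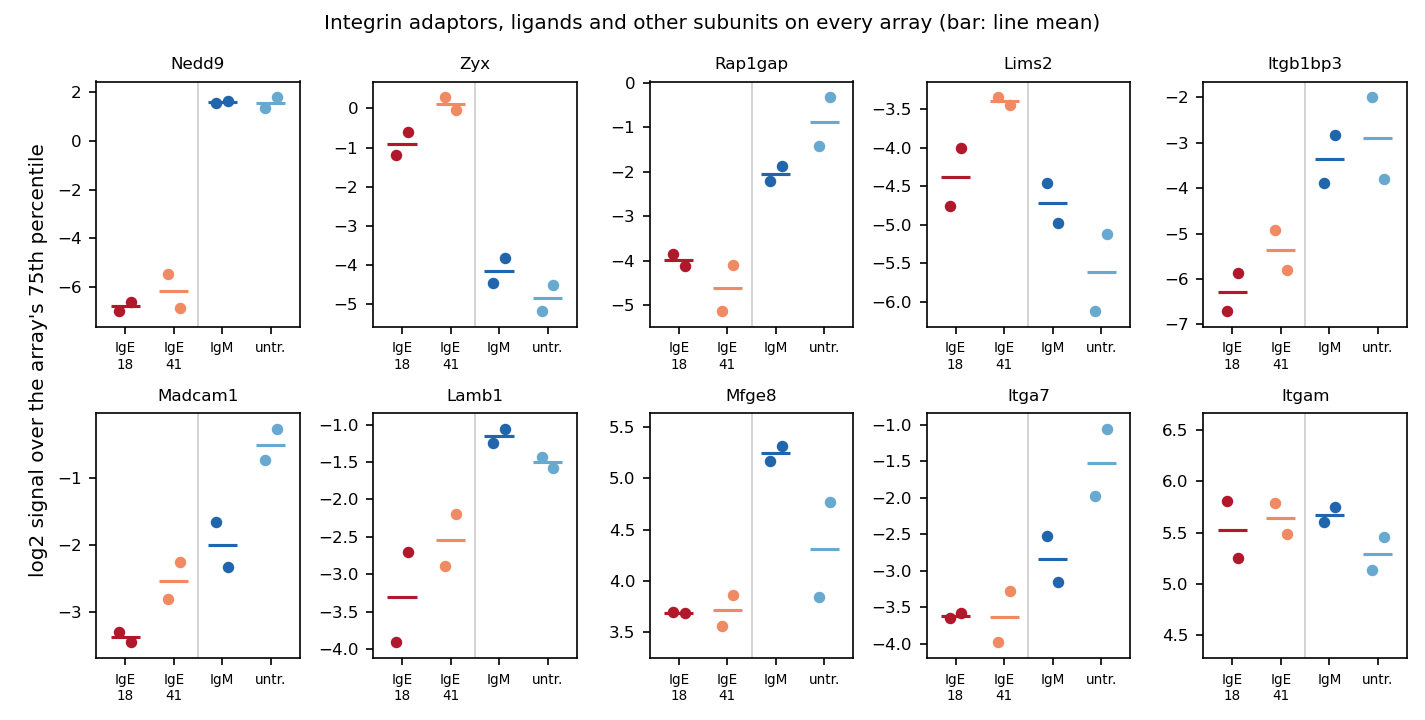
Each panel plots 1 gene of the pathway lists, with the log2 signal relative to the 75th percentile of its array on the y axis (scaled per panel) and the 4 lines on the x axis, IgE clones left of the grey line. Points are arrays and bars are line means, and Nedd9 lies far lower and Zyx far higher in the IgE lines, while Itgam overlaps between the sides.

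Of the tetraspanins and other membrane partners of integrins, 10 of 13 genes were tested and 0 were called between IgE and control lines by limma (3 lower at an unadjusted p under 0.05), against 4.21% of all gene names called higher and 6.3% lower. The median of the list was -0.12, against 0.05 over all probes. Clone 18 alone had calls against untransfected cells, where Cd9, Cd82 and Cd53 were lower (-3.46 ± 0.79, -1.52 ± 0.26 and -1.12 ± 0.18, limma adjusted p = 0.0441, 0.0159 and 0.0138), against 4.78% of all gene names. For Cd9 the untransfected arrays read 0.25 and -2.57, and only 1 clone 18 array was well above background. The Cd9 call held in 7 of 17 alternatives and was lost with quantile normalization (0.0562). None of the 3 calls held without either clone 18 array (adjusted p from 0.0692 to 0.196), and that of Cd9 was also lost with normexp background correction (-1.65, 0.097) and in the authors' deposited table (-2.19, 0.143). Clone 41 gave 0 calls in this list against untransfected cells (3 lower at an unadjusted p under 0.05), and the difference between the clones was not called for any of its genes.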

How the data were processed

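Spots of array design 028005 were, per the file headers, quantified by Agilent Feature Extraction 10.7.3.1 and probes placed on mm9. The processed intensity in the deposited files had its background subtracted and was not normalized between arrays, per the file headers. The authors' deposited table holds log2 values whose normalization is not given in the sources used here. Its column medians were 5.9 to 5.92. The 8 arrays shared 1 slide and 1 scan, which leaves no batch of that kind to test, and the lines occupied different slide columns, so that line and column cannot be told apart.

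The log2 intensity of each array was set against its 75th percentile, outlier spots were left out, and probes were kept where both arrays of 1 line or more were well above background (29140 of 55681). limma 3.58.1 in R 4.3.3 fitted 1 mean per line to all 8 arrays with every probe as a feature. Two-sided p-values were adjusted by Benjamini-Hochberg over all probes kept, and calls needed an adjusted p under 0.05 and at least 2-fold. A side with no array well above background has only a bound: its fold uses, per array, the larger of 2 signals, the probe's own and the lowest one well above background (log2 -4.9 to -4.63). Probes of one gene were compared by an exact permutation test over single arrays, which takes the arrays of a line as independent. Up to 4 called genes per list and direction were named in the main comparison and up to 2 in the others. The fit was tested on simulated data with independent noise on each array and no spread between lines, so that test cannot speak to such a spread. An accession matched the RefSeq table (GRCm38.p6) for 14 of 17 probes. Members and lists were chosen with earlier results of these data known. Precision is limited by the number of arrays. The result for 1 B cell marker is not reported here.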

Additional observations from a re-analysis of the deposited data

How the results depend on the processing

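Between IgE and control lines, 3 genes (Itga6, Itgb3 and Itga4) were called lower and 0 higher under each alternative run, except that adjusted p alone called 4 lower by adding Itgb7. The log2 difference ran from -5.18 to -4.27 for Itga6 A_55_P2015670, from -2.24 to -1.94 for Itgb3 A_52_P553890 and from -1.93 to -1.47 for Itga4, past the threshold in 20 of 20 alternatives each. The dimmer Itgb3 probe fell short of 2-fold with normexp correction (-0.82), and the second Itga6 probe (-0.71) and Itgb7 (-0.58) passed by adjusted p alone. Probes near 0 changed sign without a call: Itgav A_55_P2039771 with normexp correction (0.14), the authors' deposited table (0.03) and with an array left out (-0.13 to 0.09 over all 8), and Itgb1 A_52_P351816 with normexp correction (-0.07), the deposited table (-0.07) and with an array left out (-0.10 to 0.16 over all 8). The members called in clone 41 against untransfected cells numbered 1 in place of 2 with quantile normalization, no filter on dim probes or the deposited table, and 1 to 2 with an array left out. In clone 18 against IgM cells they numbered 3 in place of 5 with no filter, and 2 to 5 with an array left out. In clone 18 against untransfected cells they numbered 1 to 3, and in clone 41 against IgM cells 1 to 3, with an array left out. In IgM against untransfected cells they numbered 0 in place of 1 with no filter, the deposited table or the replicate block, and 0 to 2 with an array left out. Other settings changed these comparisons too. Itga4 was lost in clone 18 against untransfected cells with no filter, and in clone 18 against IgM cells in the deposited table. Clone 41 against IgM cells gained Itgal with normexp correction, with limma's trend and robust options or with the replicate block, and Itgb7 by adjusted p alone. All probes called between IgE and control lines numbered 2620, and 1344 with normexp correction, 1516 with a filter on all 8 arrays, 1527 with the deposited table and 4948 by adjusted p alone. The cause was not tested, apart from fewer arrays or probes where these define the alternative.

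Replicate numbers 1 and 2 are slide rows, and with 2 numbers they were not taken to pair samples: deviations from line means correlated at -0.0744 to 0.349 over 6 pairs of lines. With the replicate block, the Itgb3 calls of IgM against untransfected cells were lost (adjusted p = 0.0789 and 0.0566), and Itgal passed at 2 probes in clone 41 against IgM cells (0.0429 and 0.0373). Slide or scan time as a block could not be fitted, with 1 of each. Among list genes, Madcam1 kept its call between IgE and control lines in 20 of 20 alternatives and Nedd9, Zyx and Rap1gap in 19 of 19, while Itga7 and Mfge8 kept theirs in 12 of 20 and Lims2 in 10 of 19. Signals near background, such as the second Itga4 probe and Itgae, limit what the arrays can show.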

Other observations

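Further calls of the pathway lists involved 1 control line. Lims1, an adaptor of the complex of integrin-linked kinase, read 1.85 and 2.26 in clone 18 and 2.47 and 2.19 in clone 41, against 1.01 and 0.41 in IgM cells and 2.24 and 2.03 in untransfected cells. The IgM arrays were the lowest of the 8. Lims1 was higher than in IgM cells in clone 18 (1.34 ± 0.27, 2.54-fold, limma adjusted p = 0.0242) and in clone 41 (1.62 ± 0.27, 3.08-fold, 0.0145). These calls were lost without either array of the clone (adjusted p = 0.0795 and 0.147 for clone 18, 0.0999 and 0.0562 for clone 41) or IgM replicate 2 (0.109 and 0.065), and in the authors' deposited table (0.0729 and 0.0592).

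Lamc1, a laminin gamma chain, read 1.16 and 1.38 in clone 18 and 1.19 and 1.04 in clone 41, against 2.36 and 2.37 in IgM cells and 1.86 and 2.12 in untransfected cells. It was lower than in IgM cells in clone 18 (-1.09 ± 0.18, limma adjusted p = 0.0131) and in clone 41 (-1.25 ± 0.18, 0.00918), and neither call held with an array of the clone or of IgM cells left out (adjusted p from 0.0528 to 0.1). Icam5, an LFA-1 ligand known from neurons, was higher in clone 18 than in untransfected cells (1.10 ± 0.16, 2.14-fold, limma adjusted p = 0.00916), and this was lost without clone 18 replicate 1 (0.0747) or 2 (0.0655) and was under 2-fold with normexp background correction or in the authors' deposited table (0.93 each).

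IgM replicate 1 read several integrin genes above background that other arrays did not. Of 13 integrin subunit genes too dim to test, 8 were well above background on 1 array, and in 6 of these it was that array. Among ligands too dim to test the same held for 5 of 6. Itgad, an alpha chain that pairs with Itgb2, read -2.88 on that array, against -6.94 on the other IgM array and -6.94 to -6.73 on the IgE arrays. No result above rests on these genes.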
